A study of Saccharomyces cerevisiae with 4 samples.

Results

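OSI1 (YKL071W), YML131W, YLR460C, YCR102C, YNL134C and ZTA1 (YBR046C) are 6 yeast genes that encode known or predicted oxidoreductases, most of them little characterised. They were taken by name from a table of 6211 open reading frames, and all 6 had a value on each of the 4 arrays of the series. The 6 were picked with their ratios on these arrays already known, so those ratios are given as a description and carry no test. Treated cultures of Saccharomyces cerevisiae BY4741 received 10 µg/ml b-lapachone, a naphthoquinone, in DMSO for 1 h, and vehicle cultures received 1% DMSO for 1 h. Both were log-phase cultures of 50 ml in rich medium at 28 °C, and both carried the same genotype (MATa, his3Δ1, leu2Δ0, LYS2, met15Δ0 and ura3Δ0). Each array set RNA of a treated culture against RNA of a vehicle culture, in 4 biological replicates, with treated RNA in Cy5 on replicates 2 and 4 and in Cy3 on replicates 1 and 3. The comparison covers 1 strain, 1 dose and 1 time.

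b-Lapachone is reduced by cellular flavoenzymes and reoxidised by oxygen, a cycle that consumes NAD(P)H and yields superoxide and hydrogen peroxide. Oxidoreductases of the medium-chain and short-chain dehydrogenase/reductase families use NAD(P)H to reduce quinones, aldehydes and other carbonyls, and the transcription factor Yap1 raises the expression of many antioxidant genes when oxidants or electrophiles modify it. OSI1, named for its induction by oxidative stress, encodes a protein of the short-chain type. YML131W encodes a predicted medium-chain reductase. YLR460C and YCR102C encode closely related members of the quinone oxidoreductase branch of the medium-chain family. YNL134C encodes a relative of theirs that reduces aldehydes such as furfural, and ZTA1 encodes the yeast zeta-crystallin, an NADPH-dependent quinone reductase.

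All values below are ratios as the authors deposited them, taken as log2 of b-lapachone over vehicle. Base 2 and this direction are assumed, because the table states neither. The sample titles name the vehicle culture before the treated one on every array, without stating how the ratio was formed. The opposite direction would exchange every higher and lower value. Replicates 1 to 4 held values for 4819 to 5534 genes, and the column medians lay between -0.02 and 0.00. With the medians this close to 0, a change in total mRNA per cell cannot be seen in them, and fewer expressing cells cannot be told apart from less RNA per cell. Ratios also give no level, so the labelled mating type could not be checked by the presence of its markers. Of 6 a-cell markers tested, BAR1, ASG7 and AGA2 fell (means of -0.76, -0.73 and -0.53; limma, adjusted p below 0.05; 0.959% of all genes tested were called lower), and the list's per-array average ran from -0.54 to -0.20. ASG7 was not called without replicate 3 or 4, nor AGA2 without replicate 2, 3 or 4. Neither of the alpha-cell markers tested, MF(ALPHA)2 at 0.20 and SAG1 at -0.06, passed (0 by limma, 0 at an unadjusted p under 0.05). The part of mating-type genes in the results was not tested. Probes for URA3, which the strain lacks, read 0.29, -0.16, 0.35 and 0.08 on replicates 1 to 4, and HIS3, of which the his3Δ1 allele removes only a part, averaged 0.26 ± 0.30 (SD, n = 4). LEU2 and MET15, which the strain also lacks, had no value on any array.

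After b-lapachone the 6 genes lay far apart: OSI1 and YML131W were higher, YLR460C lower, and YNL134C and ZTA1 near 0. OSI1 stood at 2.15, 2.62, 1.15 and 2.13 on replicates 1 to 4. Every array put it far above 0, with replicate 3 the lowest. Its mean was 2.01 ± 0.62 (SD, n = 4), a 4.04-fold ratio, and the highest of the 4574 genes with values on 4 arrays. On single arrays OSI1 ranked 1 of 5176, 5 of 5534, 7 of 5179 and 3 of 4819 genes. The genes above it on replicate 3 included ARG1, of arginine synthesis, at 1.62 and the lysophosphatidic acid acyltransferase gene ICT1 at 1.55. Its SD was also among the largest, since 0.743% of genes with 4 values varied more between arrays.

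YML131W stood at 1.09, 1.17, 0.52 and 1.01 on replicates 1 to 4. Replicate 3 was again the lowest, and all 4 values lay above 0. Its mean was 0.95 ± 0.29 (SD, n = 4), a 1.93-fold ratio, which ranked 10 of 4574. On single arrays it ranked between 25 of 4819 (replicate 4) and 171 of 5179 (replicate 3). OSI1 exceeded YML131W on 4 of 4 arrays, by 0.63 to 1.45, with a mean difference of 1.06 ± 0.34. The quotient of the log2 ratios of OSI1 and YML131W kept within a narrow band, at 1.97, 2.24, 2.19 and 2.12 on replicates 1 to 4, a feature chosen after the values were seen.

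YLR460C stood at -0.94, -0.38, -0.95 and -0.51 on replicates 1 to 4. All 4 values lay below 0, and it was the lowest of the 6 genes on every array. The mean was -0.69 ± 0.29 (SD, n = 4), or 1.62-fold lower, and 10 of the 4574 genes had a lower mean. Counted from the bottom it ranked 36 of 5176, 312 of 5534, 11 of 5179 and 71 of 4819. Its relative YCR102C stood at -0.72, -0.07, -0.12 and -0.31. Those 4 values were also below 0, but replicate 1 was well below the others, and the mean of -0.31 ± 0.30 was -0.17 without it. YLR460C was below YCR102C on 4 of 4 arrays, by 0.20 to 0.82 (mean difference of -0.39 ± 0.29, SD). On replicate 3, where they were farthest apart, YLR460C ranked 11 and YCR102C 1803 of 5179 from the bottom. The genes are closely related, so cross-hybridisation between their probes, for which no probe sequence was used here, leaves their separate values uncertain.

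YNL134C stood at 0.07, 0.18, -0.09 and -0.08 on replicates 1 to 4, 2 values above 0 and 2 below. Its mean was 0.02 ± 0.13 (SD, n = 4), with an unadjusted 95% interval of the limma fit from -0.20 to 0.24 (0.872-fold to 1.18-fold). ZTA1 stood at -0.03, -0.14, -0.06 and -0.24, all slightly below 0. The mean of ZTA1 was -0.12 ± 0.09, with an interval from -0.33 to 0.10 (0.796-fold to 1.07-fold). No value of either was larger in size than the largest reading for the absent URA3, and 90.3% of genes with 4 values varied more between arrays than ZTA1.

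**Figure D1:**
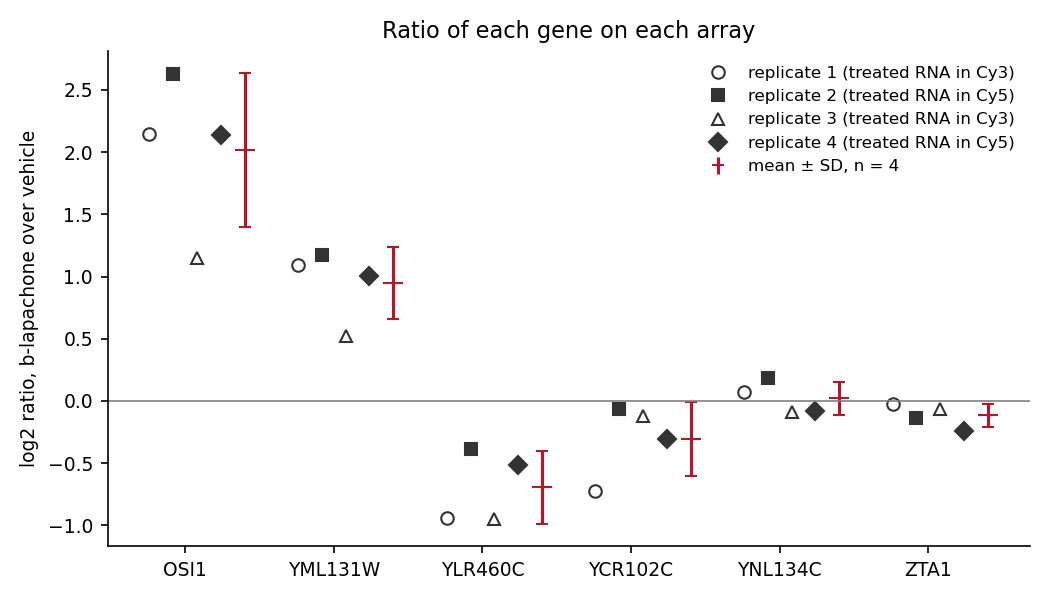
Log2 ratio of b-lapachone over vehicle (vertical axis) for each of the 6 genes on each of the 4 arrays, with filled symbols for treated RNA in Cy5 and open symbols for treated RNA in Cy3, and the mean ± SD (n = 4) in red. OSI1 lies between 1.15 and 2.62 and YLR460C between -0.95 and -0.38, while YNL134C and ZTA1 lie between -0.24 and 0.18.

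In order of their means the genes ran OSI1, YML131W, YNL134C, ZTA1, YCR102C and YLR460C. OSI1 was first, YML131W second and YLR460C last on each of the 4 arrays, while the 3 between them changed places. YML131W lay above YNL134C by 0.93 ± 0.21 (SD, n = 4), with no array in the other direction. YNL134C and ZTA1 did not differ beyond their spread (0.14 ± 0.14, 3 of 4 arrays above 0), and neither did ZTA1 and YCR102C (0.19 ± 0.34, 3 of 4). The interval between YCR102C and YLR460C, 0.39 ± 0.29, held its sign on 4 of 4.

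**Figure D2:**
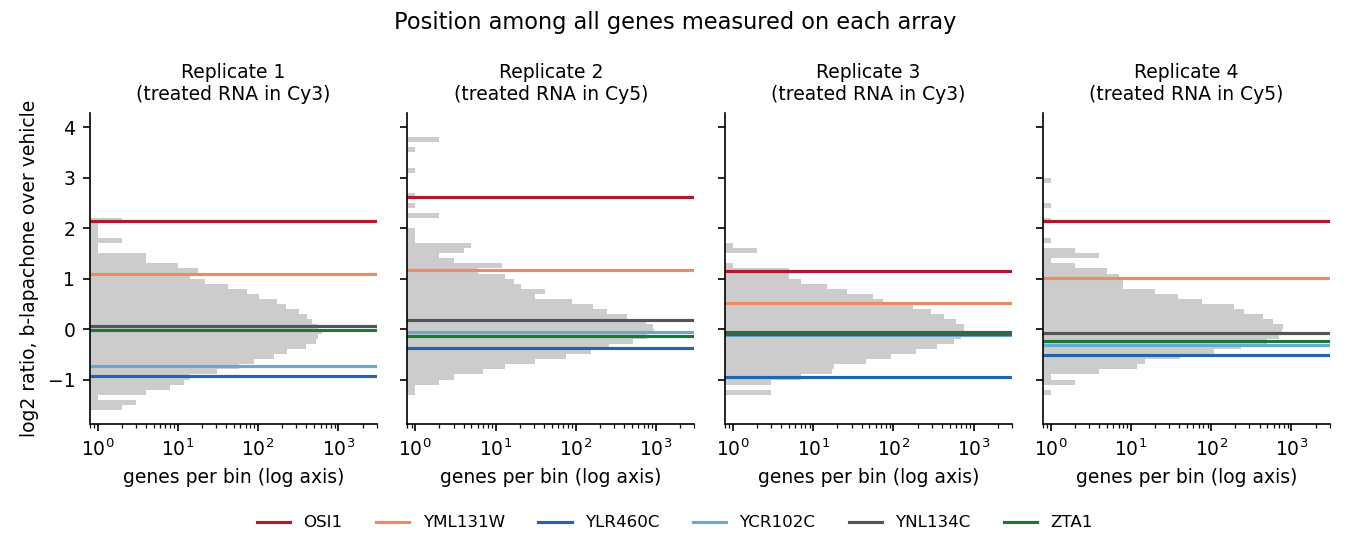
Histograms of the log2 ratios of all genes measured on each array (vertical axis, log2 ratio of b-lapachone over vehicle; horizontal axis, genes per bin of 0.1 on a log scale), with a coloured line at the value of each of the 6 genes. OSI1 lies at or near the top of every array, YLR460C in the lower tail, and YNL134C and ZTA1 in the body of the distribution.

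A fit across all 5112 genes with values on at least 3 arrays (limma, Benjamini-Hochberg adjusted p below 0.05) called 3 of the 6 genes, OSI1 and YML131W higher and YLR460C lower. Of all genes tested 3.03% were called, 2.07% higher and 0.959% lower. One sign on all 4 arrays was seen in 5 of the 6, OSI1 and YML131W above 0 and YLR460C, YCR102C and ZTA1 below, against 26.5% of genes with 4 values (12.8% above and 13.7% below). Because the genes were chosen with these values known, neither these counts nor the calls with a replicate left out are evidence about them. Without replicate 3 the fit called 2 of the 6, and YLR460C, with a mean of -0.61 there, was the one not called. OSI1 and YML131W were called whichever single replicate was left out, with means of 1.81 to 2.30 for OSI1 and 0.87 to 1.09 for YML131W.

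The dye swap gave a contrast other than the mean over the arrays, although the same array values were known when the genes were picked: the mean over arrays with treated RNA in Cy5 minus the mean over arrays with treated RNA in Cy3. OSI1 averaged 2.38 with treated RNA in Cy5 and 1.65 with it in Cy3, a difference of 0.73 ± 0.30 (limma standard error, n = 4). YLR460C averaged -0.45 with treated RNA in Cy5 and -0.94 with it in Cy3, a difference of 0.50 ± 0.19. For YLR460C the orientations did not overlap, as both arrays with treated RNA in Cy3 lay near -0.94. Those of ZTA1 did not overlap either, in the opposite direction, at -0.14 and -0.24 in Cy5 and -0.03 and -0.06 in Cy3. The share of all genes without overlap was not counted. None of the 6 passed (0 by limma, Benjamini-Hochberg adjusted p = 0.448 to 0.936), where 0.0391% of 5112 genes did. At an unadjusted limma p under 0.05 were OSI1 and YLR460C, 2 of the 6, and 9.76% of all genes. The difference was 0.28 ± 0.22 for YML131W, 0.23 ± 0.23 for YCR102C, 0.06 ± 0.19 for YNL134C and -0.14 ± 0.19 for ZTA1. With 2 arrays of each orientation the unadjusted 95% interval for OSI1 was wide, from 0.06 to 1.40, and the difference was -0.078 when the arrays were quantile-normalized and 1.28 when they were scaled. It was 1.23 without replicate 1, 0.49 without replicate 2 and 0.23 without replicate 3. Its log2 ratio was 1.15 or more on every array of both orientations.

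**Figure D3:**
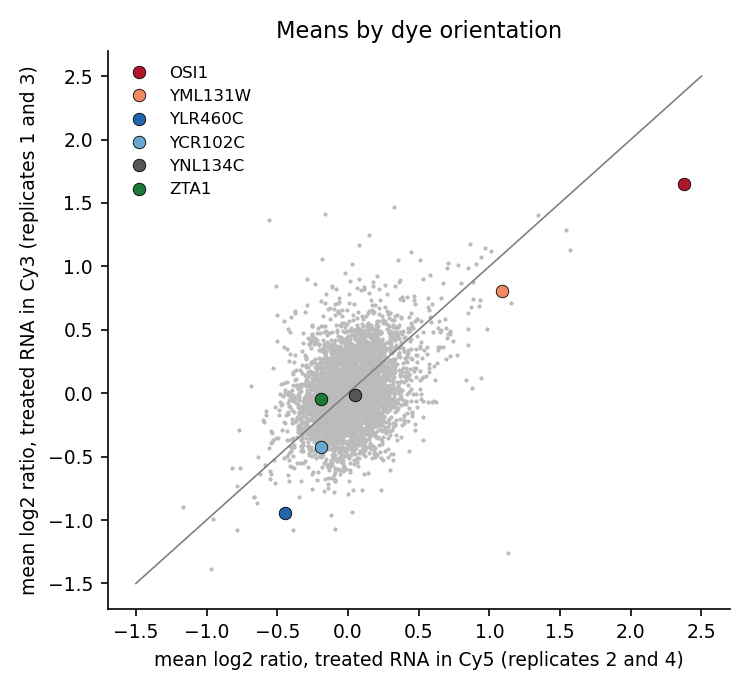
Mean log2 ratio of b-lapachone over vehicle on the arrays with treated RNA in Cy5 (replicates 2 and 4, horizontal axis) and in Cy3 (replicates 1 and 3, vertical axis) for the genes with 4 values (grey points), with the 6 genes coloured and a line of equal values. OSI1 at 2.38 and 1.65 lies apart from the other genes, and YLR460C lies below the line.

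The swap also bears on the form of the table. Arrays of the same orientation correlated at r = 0.393 (replicates 2 and 4) and 0.485 (replicates 1 and 3) across genes, and arrays of opposite orientation at r = 0.0966 to 0.444, with genes not independent points. The signs of replicates 2 and 4 were turned, as a fixed ratio of Cy3 over Cy5 would require. In that form 1 of 5112 genes was called, against 155 as deposited. The mean of OSI1 was then -0.37, that of YML131W -0.14 and that of YLR460C -0.25, and none of the 6 was called (0 by limma, 215 genes of 5112 at an unadjusted p under 0.05). A fixed ratio of Cy5 over Cy3 would need replicates 1 and 3 turned instead. That gives the same calls with every mean of the opposite sign.

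By the root mean square difference over the 4 arrays, the genes most like OSI1 were SRX1, the sulfiredoxin gene, at a distance of 0.785, ARG1 at 0.880 and ICT1 at 0.880. The median distance of OSI1 from 4573 other genes was 2.10, so even its nearest genes lay well away. SRX1 stood at 1.12, 1.60, 1.14 and 1.54 on replicates 1 to 4, below OSI1 on each array and nearest to it on replicate 3. YML131W had much closer company: PRX1, the mitochondrial peroxiredoxin gene (distance 0.175), TRX2, a cytosolic thioredoxin gene (0.212), and SPI1, a cell wall protein gene (0.213), with means of 0.88, 0.96 and 0.77. For YLR460C the nearest were TEC1, a transcription factor gene of filamentous growth (0.180), TRX1, the other cytosolic thioredoxin gene (0.183), and ALD6, the cytosolic aldehyde dehydrogenase gene (0.185), with means of -0.61, -0.56 and -0.75. TRX2 and TRX1, closely related genes whose probes could cross-hybridise, appear beside the higher and the lower reductase gene.

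The genes nearest to YCR102C were SHR5 (0.0377), KGD2 (0.0601) and SPR2 (0.0651), with the same low value on replicate 1, -0.69, -0.66 and -0.60. Nearest to YNL134C were TAD1, SUV3 and TCO89, with distances of 0.0348 to 0.0466, and nearest to ZTA1 were GMH1, MRE11 and YNL040W, with distances of 0.0164 to 0.0400. Small distances are common near 0, where most genes lie. None of the 6 genes was among the 3 nearest of another (0 of 18).

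None of the neighbouring genes tested on the chromosomes passed (0 of 11 by limma, where 3.03% of all genes were called). At an unadjusted limma p under 0.05 were 3 of the 11, and 18.8% of all genes. The 11 were the nearest tested gene on either side, with 1 side only for YML131W, and their means ran from -0.26 to 0.27. STB6, directly beside OSI1 on chromosome XI, averaged 0.07 ± 0.15 (SD, n = 4), and YKL069W, with 1 gene between, 0.20 ± 0.22. ERO1, the thiol oxidase gene of the endoplasmic reticulum that faces YML131W tail to tail on chromosome XIII, averaged 0.04 ± 0.28. PAU4, which lies head to head with YLR460C on chromosome XII, was above 0 on 4 of 4 arrays (0.14 ± 0.07), where YLR460C was below 0 on each. PAU4 belongs to a family of near-identical genes, so its own value is uncertain. GAB1, on the other side of YLR460C, averaged -0.26 ± 0.17 (limma, Benjamini-Hochberg adjusted p = 0.201). EMA35 and AAD3, the nearest tested genes to YCR102C on chromosome III, with 1 and 3 genes between, averaged 0.27 ± 0.08 and 0.22 ± 0.14, above 0 where YCR102C was below. Beside YNL134C on chromosome XIV, EAF7 and FYV6 averaged 0.13 ± 0.31 and 0.19 ± 0.28. Beside ZTA1 on chromosome II, GIP1 averaged -0.06 ± 0.25 (n = 3) and FMP23 0.19 ± 0.15.

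**Figure D4:**
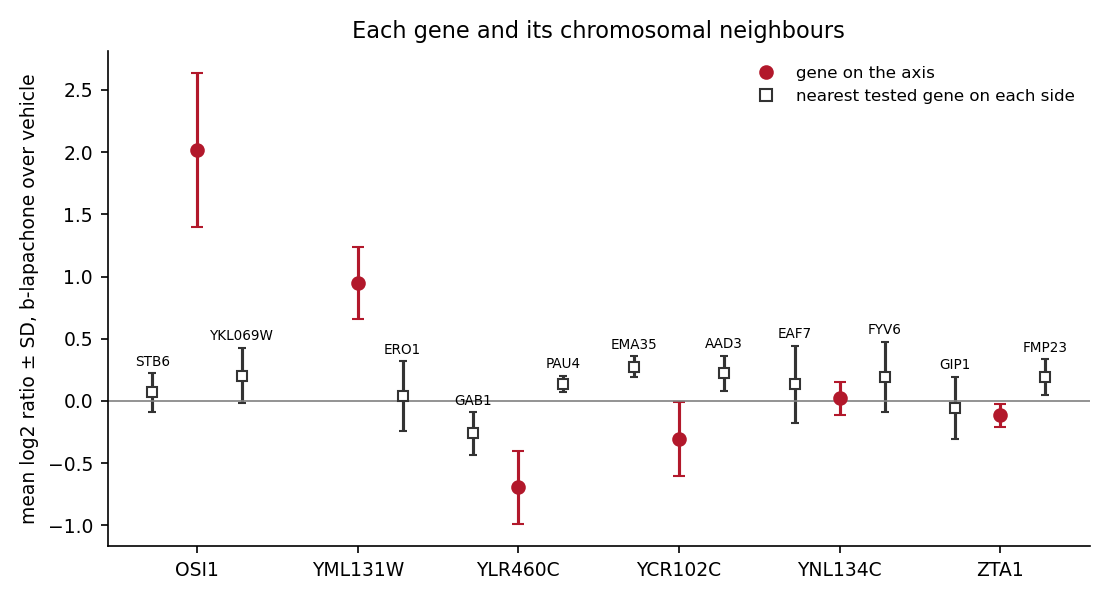
Mean log2 ratio ± SD of b-lapachone over vehicle (vertical axis, n = 4, n = 3 for GIP1) for each of the 6 genes (red circles) and the nearest tested gene on either side (open squares). The 11 neighbours lie between -0.26 and 0.27, while OSI1 is at 2.01 and YML131W at 0.95.

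Other genes of the medium-chain family did not pass in the upward direction. Of 15 tested, none rose and 1 fell (0 and 1 by limma, where 2.07% of all genes rose and 0.959% fell), with a median of -0.11 against -0.01 over all genes tested. At an unadjusted limma p under 0.05 were 3 of the 15, near the 18.8% of all genes. The one called was ADH2, the alcohol dehydrogenase that oxidises ethanol, at -0.50 ± 0.22 (SD, n = 4; limma, Benjamini-Hochberg adjusted p = 0.0328). ADH2 is closely related to ADH1, so its separate value is uncertain. The 15 means ran from -0.50 to 0.27, so YML131W lay above and YLR460C below every one of them. YML131W and YLR460C were picked with their ratios known, so this placing is a description only. Without replicate 3 and without replicate 4 no gene of this list was called (0 by limma, with 2 and 3 at an unadjusted p under 0.05).

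In the short-chain family, to which OSI1 is related, 2 of 15 genes rose and none fell, with a median of 0.08 (limma, where 2.07% of all genes rose and 0.959% fell). At an unadjusted limma p under 0.05 were 7 of the 15, and 18.8% of all genes. GRE2, a methylglyoxal reductase gene, rose by 0.60 ± 0.15 (SD, n = 4; limma, Benjamini-Hochberg adjusted p = 0.00792), and YLL056C, a predicted reductase gene, by 0.54 ± 0.30 (adjusted p = 0.0357). On YLL056C the arrays with treated RNA in Cy5 read 0.93 and 0.62 and those with it in Cy3 0.29 and 0.32. All 15 means lay below that of OSI1, the highest being GRE2. OSI1 had the highest mean of all genes with 4 values, so its place above this list was fixed in advance. YLL056C was not called without replicate 2, 3 or 4, nor GRE2 without replicate 4 (adjusted p = 0.0508). The list had 1 call without replicate 3 and 0 without replicate 4 (limma, 6 at an unadjusted p under 0.05 in each case).

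Of 9 quinone reductase genes other than ZTA1, none rose and 1 fell, with a median of -0.19 (limma, where 2.07% of all genes rose and 0.959% fell). At an unadjusted limma p under 0.05 were 4 of the 9, and 18.8% of all genes. NDE1, the external mitochondrial NADH dehydrogenase, which reduces ubiquinone, fell to -0.49 ± 0.14 (SD, n = 4; limma, Benjamini-Hochberg adjusted p = 0.0253). The means of the 9 ran from -0.49 to 0.18, a range that holds ZTA1. NDE1 was not called without replicate 3 or without replicate 4, when the list had no call (0 by limma, with 3 and 4 at an unadjusted p under 0.05).

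Of 16 known Yap1 targets tested outside the 6 genes, 9 rose, none fell and 7 did not pass, where 2.07% of all genes rose, and the list's median was 0.59 against -0.01 over all genes tested. An unadjusted limma p under 0.05 was reached by 12 of the 16, and by 18.8% of all genes. SRX1 had the highest mean at 1.35 ± 0.25 (SD, n = 4), followed by the glutathione peroxidase gene GPX2 at 1.06 ± 0.18, TRX2 at 0.96 ± 0.20 and the thioredoxin peroxidase gene TSA2 at 0.93 ± 0.27. These 4 were called whichever replicate was left out. YML131W lay among them, and OSI1 above all 16, a place fixed in advance by its having the highest mean of genes with 4 values. The list's median was 0.57, 0.69, 0.43 and 0.52 on replicates 1 to 4, lowest on replicate 3 as for OSI1 and YML131W. The targets with means below 0 were OYE3, an old yellow enzyme gene, at -0.19 ± 0.31 and the glutathione reductase gene GLR1 at -0.01 ± 0.16, both named after their values were seen. Some of these targets were known to be high on these arrays when the list was drawn up, so the count is not independent evidence of its direction. The lists also overlap. GRE2, called here, is counted in the short-chain list too, and the old yellow enzyme genes are counted among the quinone reductases too.

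**Figure D5:**
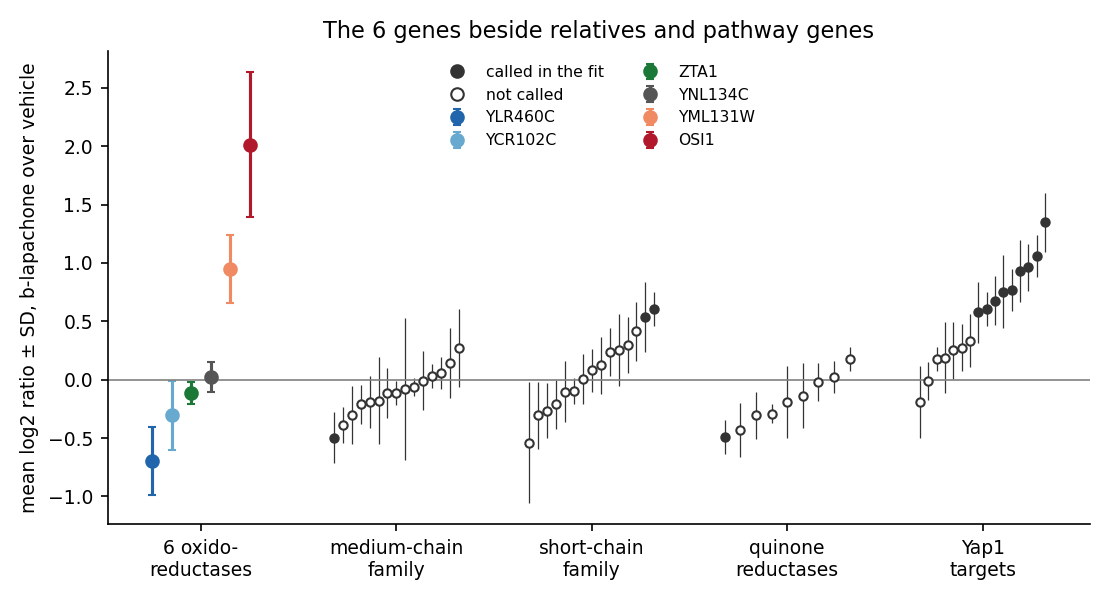
Mean log2 ratio ± SD of b-lapachone over vehicle (vertical axis) for the 6 genes (coloured) and for the tested members of 4 gene lists, each sorted by mean, with filled circles for genes called by limma and open circles for the others (n = 4, or 3 where 1 array had no value). OSI1 at 2.01 lies above all genes shown, the Yap1 targets reach 1.35, and the medium-chain family stays between -0.50 and 0.27.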

How the data were processed

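Arrays with 2 colours compared treated and vehicle cultures (4 arrays, 1 group). The authors deposited 1 log2 ratio per open reading frame and array; base and direction are assumptions, and how the ratios were scanned, background-corrected and normalized was not given in the sources used here. Of 6211 names 5662 matched the R64 gene table, used for names and neighbours. No build is named for the arrays, so no coordinates are printed, and sequences were not analysed here. R 4.3.3 and limma 3.58.1 tested the mean against 0 and, in a second fit, a dye coefficient (two-sided, lmFit then eBayes) over the 5112 genes with at least 3 values (4574 had 4), adjusted by Benjamini-Hochberg at 0.05, with no further normalization. The procedure was tested on simulated data. Array signals were not used here, so dim spots could not be told from others; the number of arrays limits precision (median standard error 0.109). The genes, lists (from general knowledge of yeast) and tests were chosen with earlier results of these data known. Besides the 6 genes, the text names the 3 genes nearest to each, the nearest tested neighbours, and up to 4 called genes of each list, or its largest where none was called; any other gene is marked as picked on its values. Alternatives were a fixed dye ratio, a dye coefficient, 3 normalizations, other minimum numbers of values, a robust prior, array weights and leaving out each replicate.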

Additional observations from a re-analysis of the deposited data

Results flagged for a closer look

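The genes examined were the 6, their nearest genes and neighbours, and up to 4 called genes of each list, or its largest where none was called. Of the 45 measured on all 4 arrays, 3 had an array far from the others, and chance flags about 1 gene in 20 (Dixon's test at 95%). The glutathione peroxidase gene GPX2, a Yap1 target, read 1.32 on replicate 1, against 0.96 to 0.98 on the others. Both tested neighbours of OSI1 were among the 3: STB6 read 0.30 on replicate 1 and YKL069W 0.54 on replicate 2, neither of which is the array where OSI1 itself was lowest, replicate 3. None of the 6 oxidoreductase genes was among them (0 of 6), although YCR102C on replicate 1 and OSI1 on replicate 3 lay well below their other values.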

How the results depend on the processing

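The series has 1 group, and each array is itself a direct comparison of a treated with a vehicle culture. The test of the mean ratio against 0 is therefore already a paired analysis, and no other was run. In the fit of the ratio, OSI1 and YML131W kept their direction and their call in every alternative run except a fixed ratio of the dyes, and YLR460C did so except there and without replicate 3. These genes were picked with their ratios known, so their calls are a description and not evidence about them. With a fixed ratio of the dyes, taken as Cy3 over Cy5, the means were -0.37 for OSI1, -0.14 for YML131W, -0.25 for YLR460C and 0.072 for ZTA1. Taken as Cy5 over Cy3, each of these means has the opposite sign, so their signs give no direction. In either form 1 gene of 5112 was called in place of 155. The counts were 0 in the Yap1, medium-chain, short-chain and quinone reductase lists (limma, with 0, 1, 0 and 0 at an unadjusted p under 0.05). Array weights gave 274 calls over all genes, 2 in the medium-chain list, 4 in the short-chain list and 2 among quinone reductases. A dye coefficient gave 4 short-chain calls. Quinone reductases had 2 calls, in place of 1, with a dye coefficient, scaling, quantile normalization, values on 4 arrays or a robust prior. Leaving out 1 replicate at a time gave 40 (without replicate 3) to 253 (without replicate 1) calls over all genes and 62 without replicate 4. It gave 0 to 2 calls in the medium-chain list, 0 to 3 in the short-chain list and 0 to 2 among quinone reductases. In the Yap1 list it gave 7 calls, in place of 9, without replicate 3 and 7 without replicate 4. Genes called for the dye difference numbered 2, became 4 with scaling or with values on at least 2 arrays, and ran from 2 to 198 (without replicate 3) when a replicate was left out, with 10 without replicate 2 and 4 without replicate 4. The dye difference of OSI1 turned to -0.078 with quantile normalization and was 1.28 with scaling. With 1 replicate left out, when a lone array of an orientation is taken to vary like the others, it ran from 0.23 to 1.23 for OSI1, from -0.064 to 0.53 for YCR102C, from -0.0018 to 0.57 for YML131W and from -0.068 to 0.19 for YNL134C. The cause of these shifts was not tested. Promoter motifs and protein relations were not run.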

Other observations

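On replicate 2, YNL017C, FKS3, AFI1 and GSY1 read 3.73, 3.71, 3.57 and 3.17, above OSI1 at 2.62, and on replicate 4, PUL4 and SSU72 read 2.96 and 2.44, above OSI1 at 2.13. The first 4 had values on at most 2 arrays and were not tested, and SSU72 read -1.20 on replicate 1. These genes were chosen after their values were seen.

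NRE1 and IRC24, related short-chain reductase genes with consecutive systematic names (YIR035C and YIR036C), lay on opposite sides of 0. NRE1 read 0.17, 0.73, 0.27 and 0.49 on replicates 1 to 4, and IRC24 read -1.17, -0.11, -0.75 and -0.13. Both genes read lower on the arrays with treated RNA in Cy3 than on those with it in Cy5. Neither gene was called (limma, Benjamini-Hochberg adjusted p = 0.0757 and 0.100). They too were chosen after their values were seen.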
